A study of Mus musculus with 24 samples.

Results

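The mRNAs of the cytosolic ribosomal proteins were followed in RNA amplified from the outer surface of 5 types of mouse blood cell and in total RNA of blood mononuclear cells (PBMCs, lymphocytes and monocytes of peripheral blood). Members were the genes whose symbol is Rpl or Rps followed by a digit, together with Rplp0, Rplp1, Rplp2 and Rpsa. Symbols marked as pseudogenes, the Rps6k kinases, Rps19bp1 and Rpl13 were left out. This rule found 85 of the 21502 genes with protein-coding transcripts in the surface tables, 51 of the large subunit and 34 of the small subunit, and 84 of the 55335 genes in the PBMC tables. Of the 85, 80 had a mean of at least 1 TPM (transcripts per 1000000, a share of the library corrected for transcript length) over the 15 surface libraries and entered the tests. The other 5 were Rpl39l, Rps23rg1, Rpl10l, Rps27rt and Rpl3l, which are paralogs or copies of members with higher levels.

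The surface libraries came from wild-type C57BL/6 mice, with 3 libraries each of B cells, T cells and natural killer (NK) cells from spleen and, from bone marrow, of monocytes and of hematopoietic stem and progenitor cells (HSPCs). T cells were isolated with a CD8 T cell kit, HSPCs by depletion of lineage-positive cells, and the other types with a kit for each. In AMOUR, the assay used, random primers carrying a T7 promoter anneal to RNA on fixed, intact cells. T7 RNA polymerase then copies that RNA in place. The paper states that no present method, AMOUR included, fully removes the risk that RNA from inside the cell is captured. In a human cell line it reported RPL13, RPL36A and RPL41 as enriched in cell lysate rather than in AMOUR. The 9 PBMC libraries were also labelled wild type by genotype and were split into 3 groups of 3 by the treatment names ct, WT and Y, which the labels do not explain. Nothing in the labels said which libraries shared an animal, so p-values measure the spread between libraries only.

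A ribosome is built from ribosomal RNA and a near-equal set of proteins, each usually present once per particle. Their mRNAs are short, abundant and made in step. They begin with a run of pyrimidines, the terminal oligopyrimidine (TOP) tract, through which the growth kinase mTORC1 controls their translation. Many of the genes carry small nucleolar RNAs (snoRNAs), guides for the modification of ribosomal RNA, inside their introns.

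Coding sequences are shown for 1 pair of paralogs and for the shortest member. Rps27 and its paralog Rps27l, a gene induced by p53, both encode small zinc-binding proteins of the 40S subunit. Their coding sequences (GENCODE M21, stop codon left out) are shown because the levels of this pair moved apart between cell types. Each has 252 bases and 60 positions differ, written in capitals in both, so that 76.2% of positions are identical and no identical run exceeds 11 bases.
Rps27: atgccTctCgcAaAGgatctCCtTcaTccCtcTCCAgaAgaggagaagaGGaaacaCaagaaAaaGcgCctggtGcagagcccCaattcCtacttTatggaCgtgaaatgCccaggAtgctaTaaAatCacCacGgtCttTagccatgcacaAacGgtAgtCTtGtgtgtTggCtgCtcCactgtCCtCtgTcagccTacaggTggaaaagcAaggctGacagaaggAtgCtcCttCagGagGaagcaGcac
Rps27l: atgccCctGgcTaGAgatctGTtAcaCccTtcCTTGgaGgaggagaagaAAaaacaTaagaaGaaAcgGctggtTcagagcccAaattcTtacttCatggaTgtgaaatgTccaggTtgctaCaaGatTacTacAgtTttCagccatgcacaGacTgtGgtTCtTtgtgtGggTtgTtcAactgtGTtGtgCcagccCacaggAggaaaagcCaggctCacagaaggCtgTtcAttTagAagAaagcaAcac
Rpl41 has the shortest coding sequence of the members, with 25 codons. Its start codon is in capitals.
Rpl41: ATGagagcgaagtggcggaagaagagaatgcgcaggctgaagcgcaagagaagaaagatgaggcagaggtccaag

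Promoter sequences were at hand for 65 of the 85 members (RefSeq, GRCm38.p6). The windows below are those of the members among the 10 with the highest mean TPM that had an entry, from 30 bases before to 20 bases after the annotated start. They are shown because a TOP tract, where present, lies at the start of the transcript, although annotated starts may lie off it and the windows of Rplp0 and Rpl10 hold no CTTTCC. The capitals mark CTTTCC, a run of pyrimidines.
Rps27 (chr3:90213629-90213678, minus strand): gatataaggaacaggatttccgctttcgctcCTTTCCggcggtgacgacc
Rplp0 (chr5:115559437-115559486, plus strand): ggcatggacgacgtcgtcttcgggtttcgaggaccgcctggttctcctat
Rpl13a (chr7:45128726-45128775, minus strand): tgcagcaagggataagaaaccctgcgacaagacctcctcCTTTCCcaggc
Rpl10 (chrX:74270786-74270835, plus strand): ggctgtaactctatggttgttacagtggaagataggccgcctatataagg
Rps10 (chr17:27635225-27635274, minus strand): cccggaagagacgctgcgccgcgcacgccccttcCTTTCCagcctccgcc
A C followed by at least 4 pyrimidines began the annotated transcript in 14 of 65 members (21.5%) and in 3.01% of all 27025 genes with an entry. The letters CTTTCC on the transcribed strand between 10 bases before and 20 bases after an annotated start were found in 11 of 65 members (16.9%) and in 1.53% of all genes. Counted on both strands of the whole 300-base promoter window, they were found in 35 members (53.8%) and in 29.3% of all genes. The motif can lie inside a longer TOP tract, and a match or its absence is a description of these letters only.

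Ribosomal protein mRNAs were measured in the surface libraries of every cell type. Their level relative to the library and to other mRNAs ordered the types differently. Summed over members, the level was 6484, 4864 and 4244 TPM in the B cell libraries, with a mean of 5197 ± 1156 TPM (SD, n = 3). It was 2042, 4211 and 3612 TPM in T cells, 2428, 3841 and 4761 TPM in NK cells, and 1898, 3157 and 2658 TPM in HSPCs. Monocytes stood apart with 12351, 12463 and 12237 TPM. B cells did not overlap T cells or HSPCs but did overlap NK cells, and T cells, NK cells and HSPCs overlapped one another. All protein-coding transcripts together held 17.5% of the monocyte libraries, against 2.41% in B cells, 2.31% in NK cells, 1.57% in HSPCs and 1.12% in T cells, the rest being other RNA types. Among these, 3 genes alone held 79.0% of the HSPC libraries, against 11.5% to 28.9% in the other types. Ribosomal RNA held 9.95% of the HSPC libraries, against 35.8% to 55.2%.

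Within protein-coding TPM the order changed. Members held 31.7%, 27.8% and 30.0% of it in the T cell libraries, a mean of 29.8% ± 1.97 (SD, n = 3). They held 21.5% ± 0.864 in B cells, 16.4% ± 0.184 in HSPCs, 15.9% ± 0.466 in NK cells and, lowest, 7.06% ± 0.319 in monocytes. HSPCs and NK cells overlapped, whereas T cells, B cells and monocytes each stood apart from all other types. Monocytes were thus highest by TPM and lowest by share of mRNA. Monocyte libraries were sequenced on another platform (DNB T7) than the other 4 types (Illumina HiSeq). Platform and cell type therefore cannot be told apart for any monocyte value. Monocyte TPM were also given for more transcripts than those of the other types, and were restricted to the shared transcripts without rescaling. Without the member with the highest mean, Rplp1, the share was 26.8% in T cells and 20.02% in B cells, in the same order.

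**Figure D1:**
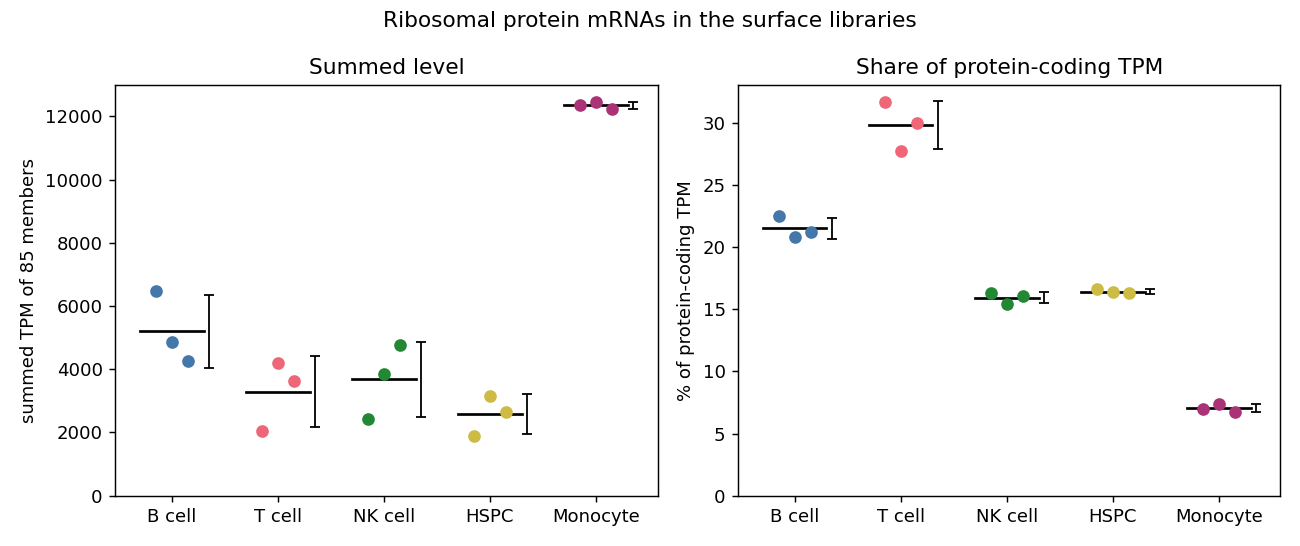
Left, TPM summed over the 85 ribosomal protein genes in each surface library (points) by cell type, with the mean (line) and SD (bar, n = 3). Right, the same sum as a percentage of protein-coding TPM. Monocytes sit highest on the left at a mean of 12350 TPM and lowest on the right at 7.06%, where T cells are highest at 29.8%.

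The highest summed level of the B cell, T cell, NK cell and monocyte marker lists was in the type of that label. The 6 B cell markers summed to between 182 and 299 TPM in B cells, the T cell markers to between 18.2 and 51.4 TPM in T cells, and the NK cell markers to between 72.7 and 212 TPM in NK cells. Monocyte libraries held 3189 to 3951 TPM of monocyte markers and also 1574 to 1813 TPM of neutrophil markers, all 6 of them above 0. The HSPC list reached 12.4 to 21.4 TPM in HSPCs but 31.9 to 36.9 TPM in monocytes, so it does not set HSPCs apart. HSPC libraries also held 39.5 to 121 TPM of neutrophil, 18.6 to 40.4 TPM of erythroid and 19.4 to 34.95 TPM of platelet markers, with all 6 of each above 0. NK cell libraries held 28.1 to 38.98 TPM of neutrophil and 10.02 to 64.5 TPM of erythroid markers, all 6 of each above 0, and 8.07 to 18.9 TPM of the HSPC list, which overlapped HSPCs, together with 15.1 to 23.2 TPM of monocyte and 9.25 to 14.1 TPM of B cell markers. T cell libraries held 6.36 to 17.5 TPM of NK cell and 6.53 to 16.3 TPM of monocyte markers. Platelet markers reached 86.1 to 124 TPM in monocytes. The part of these in the results was not tested.

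The make-up of the pool was least even on T cells. In each T cell library the 3 highest members held between 30.6% and 34.7% of the summed level, against 18.3% to 19.3% in B cells, 18.9% to 23.0% in NK cells, 14.7% to 15.5% in HSPCs and 9.25% to 10.4% in monocytes. Small-subunit members held 52.1% ± 1.33 (SD, n = 3) of the sum in T cells, 47.8% ± 0.562 in B cells, 47.3% ± 0.869 in NK cells, 45.7% ± 0.409 in HSPCs and 43.0% ± 1.00 in monocytes. Across the 80 members, mean levels ranked most alike in NK and T cells (Spearman's rho 0.926) and least alike in T cells and monocytes (0.567). These are descriptions over members of the same libraries. Replicates of B cells ranked at 0.896 to 0.988.

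**Figure D2:**
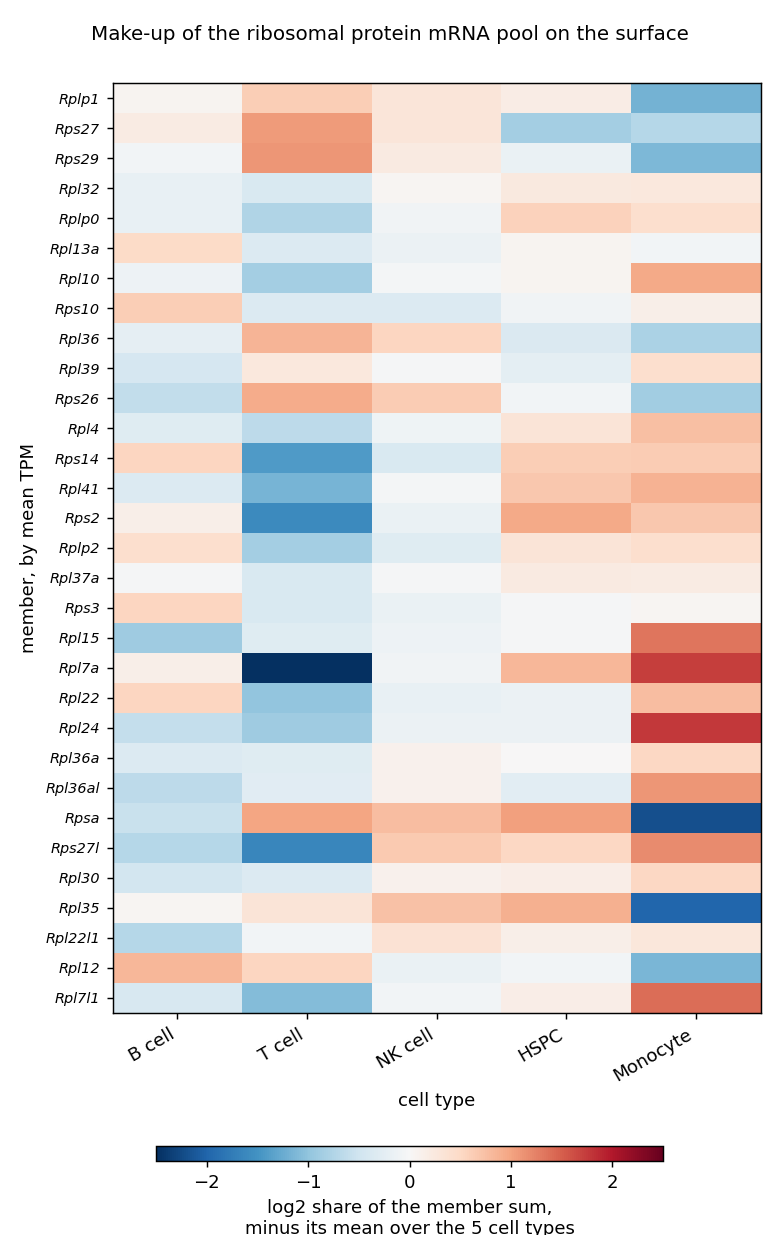
Share of each of 31 members that the text names in the member sum (colour, log2, relative to its mean over the 5 cell types), with members (rows) ordered by mean TPM. T cells stand out by high Rps27, Rps29, Rps26 and Rpl36 and by low Rpl7a, Rps27l, Rps2 and Rps14, and monocytes by low Rpsa and Rpl35.

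Rplp1, an acidic protein of the stalk that recruits translation factors to the large subunit, had the highest mean level of all members. Its level was 431, 344 and 302 TPM in B cells, 217, 376 and 404 TPM in T cells, and 201, 313 and 395 TPM in NK cells. HSPCs had 146, 225 and 212 TPM and monocytes 337, 382 and 362 TPM. The types overlapped except that HSPCs lay below B cells and monocytes. As a share of the member sum it was 8.93% to 11.2% in T cells and 2.73% to 3.06% in monocytes.

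Rps27 was the next highest and varied far more. Its level was 524, 279 and 230 TPM in B cells, 275, 485 and 351 TPM in T cells, and 185, 268 and 280 TPM in NK cells. It was 59.2, 102 and 76.1 TPM in HSPCs and 435, 372 and 450 TPM in monocytes. Every HSPC library lay below every other library.

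Rps29, another small zinc-binding protein of the 40S subunit, was also lowest in HSPCs, with 76.6, 136 and 119 TPM in HSPCs and 216, 442 and 349 TPM in T cells. Between these lay B cells with 233, 253 and 208 TPM and NK cells with 172, 191 and 224 TPM. Monocytes had 280, 245 and 290 TPM. T cell replicate 1 lay within the range of B and NK cells, and the other T cell libraries above it.

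The members among the highest 10 also included Rpl32, Rplp0, Rpl13a, Rpl10 and Rps10. These 5 were highest in monocytes by mean level. Rpl10, a protein that joins the large subunit late in its assembly, was at 109, 71.8 and 53.1 TPM in B cells, 17.6, 40.0 and 31.5 TPM in T cells and 416, 367 and 367 TPM in monocytes. Its monocyte libraries lay above all B cell and T cell libraries.

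Each of the 4 types sequenced on one platform was then compared with the mean of the other 3, and monocytes with the mean of those 4, to ask which members set a cell type apart. limma was fitted over 7304 genes in 2 ways, on log2(TPM + 1) and on the same values after protein-coding TPM had been scaled to 1000000 per library, and a gene was called at a Benjamini-Hochberg adjusted p below 0.05. The first, the TPM scale, follows the share of the whole library, and the second, the protein-coding scale, the share among mRNAs. Fold changes are on these log2 scales, which understate the change of scarce members. A direction that differs between scales is given on both, except that for most members on monocytes it is given as a count.

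**Figure D3:**
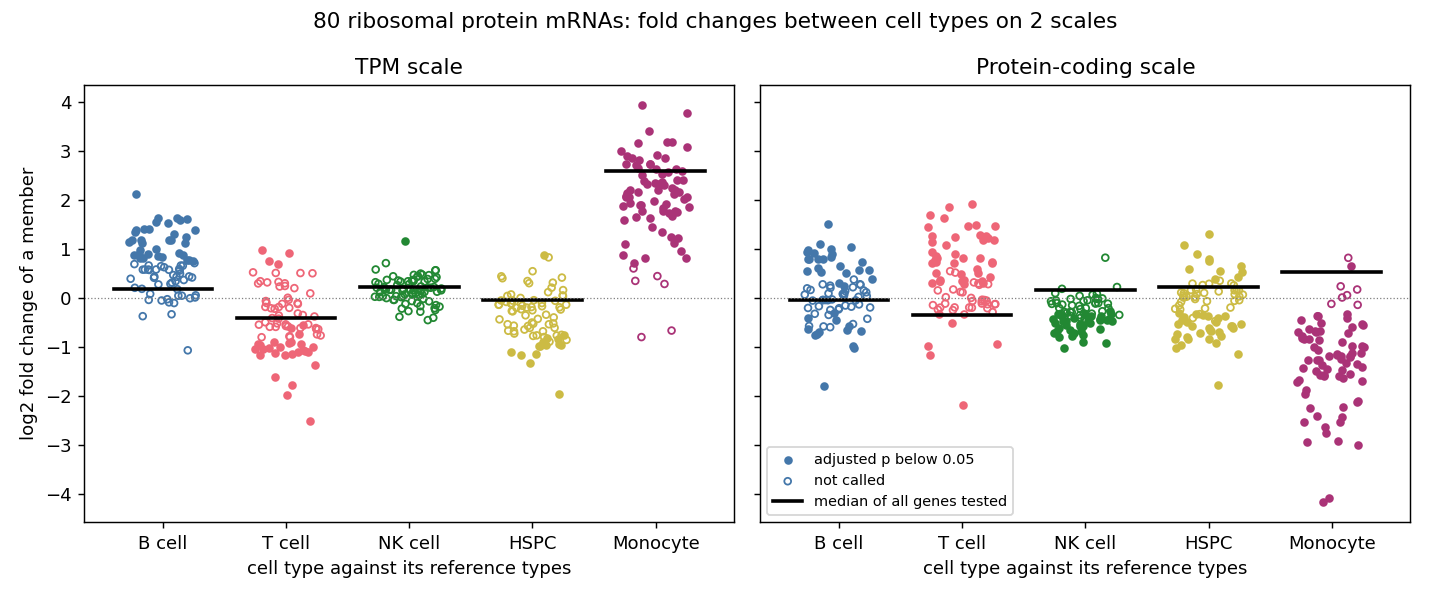
Log2 fold change of 80 members (points) for each cell type against its reference types, on the TPM scale (left) and on the protein-coding scale (right). Filled points passed an adjusted p below 0.05 and the black line is the median of all 7304 genes tested, which on the left is 2.59 for monocytes.

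On B cells, the members called were all higher by TPM, while those called among mRNAs went both ways. On the TPM scale 35 of 80 members were called higher than on T cells, NK cells and HSPCs, against 29.5% of all genes tested, and 0 lower, against 7.35%, with 39 (48.8%) at an unadjusted p below 0.05 in either direction, against 45.9% of all genes. Their median log2 fold change was 0.65, against 0.19 over all genes. Without B cell replicate 1 the count was 20 higher (18.4% of all genes) and 1 lower, and without B cell replicate 2 it was 21 higher (20.1%). Among mRNAs, on the protein-coding scale, 24 members were higher (24.3% of all genes) and 13 lower (28.2%), with a median of 0.06 against -0.04. Without B cell replicate 1 that became 23 higher (23.1% of all genes) and 24 lower (27.8%).

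The 24 members higher on both scales included Rpl22 and Rps14, which were among those with the largest changes, as well as Rplp2, Rps2, Rps3 and Rpl12. Rpl22, a large-subunit protein needed for the development of T cells, had 41.3, 37.6 and 29.8 TPM in B cells, against 3.72, 11.3 and 10.5 TPM in T cells. It was higher in B cells by 1.63 ± 0.32 (limma adjusted p = 0.000422) on the TPM scale. Every B cell library lay above every library of T cells, NK cells and HSPCs for Rpl22. Rps14, a protein of the platform of the small subunit, was higher by 1.63 ± 0.32 (limma adjusted p = 0.000419).

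On T cells, few members were higher by TPM, whereas 51.2% of them were higher among mRNAs. On the TPM scale 4 members were called higher, against 1.44% of all genes, and 27 lower, against 58.7%. The member median was -0.55, against -0.41 over all genes. By share of mRNA, on the protein-coding scale, 41 were higher (13.5% of all genes) and 6 lower (40.9%), with a median of 0.33 against -0.35, so that the direction of the group turned with the scale. Without T cell replicate 1, whose protein-coding share of 0.644% was the lowest of the 15 libraries, the TPM scale gave 5 higher (1.78% of all genes) and 5 lower (27.9%). Leaving out 1 library gave between 42 and 54 calls on the protein-coding scale, with 46.1% to 58.0% of all genes called.

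Higher on both scales were Rps27, Rps29, Rps26 and Rpl36. Rps27 was higher by 0.98 ± 0.28 on the TPM scale (limma adjusted p = 0.00581) and by 1.92 ± 0.17 on the protein-coding scale (limma adjusted p = 6.65e-07). Rps29 was higher by 0.93 ± 0.25 (limma adjusted p = 0.00518) and by 1.86 ± 0.15. Without a filter on low values the calls of Rps27 and Rps29 on the TPM scale were lost. Rps26, which lies near the exit of the mRNA channel, had 66.9, 122 and 105 TPM in T cells, against 89.6, 48.0 and 33.2 TPM in B cells. NK cells overlapped T cells for Rps26, with 75.6, 87.7 and 97.8 TPM. Its call on the TPM scale (0.76 ± 0.33, limma adjusted p = 0.0493) was lost in 15 of the alternatives, with adjusted p from 0.052 to 0.177. Among mRNAs Rps26 was higher by 1.70 ± 0.20 (limma adjusted p = 9.62e-06). The call for Rpl36 on the TPM scale was also near the threshold (0.68 ± 0.29, limma adjusted p = 0.0492) and held in 7 of 22 alternatives, and on the protein-coding scale it was at 1.62 ± 0.14.

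Lower on both scales were Rpl7a, Rps2, Rps14, Rps27l, Rpl41 and Rpl22. Rpl7a, a large-subunit protein whose gene holds 3 annotated snoRNA genes, had 0.932, 2.66 and 1.89 TPM in T cells, against 24.0, 18.6 and 15.2 TPM in B cells. NK cells had 6.31, 10.97 and 19.2 TPM and HSPCs 11.6, 19.7 and 14.7 TPM of Rpl7a. Every T cell library lay below every other library. The fold change was -2.52 ± 0.30 on the TPM scale (limma adjusted p = 3.49e-06) and -2.19 ± 0.13 on the protein-coding scale.

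Rps2, which lies near the entry of the mRNA channel, had 4.78, 13.9 and 13.1 TPM in T cells. It had 70.6, 47.4 and 42.8 TPM in B cells, 15.1, 33.0 and 48.0 TPM in NK cells and 36.7, 50.3 and 48.3 TPM in HSPCs. No T cell library reached those of the other types. Its fold change in T cells was -1.97 ± 0.34 (limma adjusted p = 0.000162), and that of Rps14 -1.78 ± 0.32 (limma adjusted p = 0.000224), on the TPM scale. On the protein-coding scale these were -1.16 ± 0.15 and -0.94 ± 0.16, both called.

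On NK cells, almost no member differed by TPM. On the TPM scale 1 member was called higher, against 14.7% of all genes, and 0 lower, against 0.876%. At an unadjusted p below 0.05 there were 2 members, against 32.7% of all genes. The count of calls was 3 without NK cell replicate 1, where 48.6% of all genes were called higher, and 0 without NK cell replicate 3. Over all fits that left out 1 library, 5.11% to 49.4% of all genes were called. On the protein-coding scale 0 members were higher (19.8% of all genes) and 36 lower (5.07%), with a member median of -0.33 against 0.15 over all genes. That count was 22 lower (4.98% of all genes) and 1 higher (16.1%) without NK cell replicate 2.

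The 1 member was Rps27l. Its level was 15.6, 12.6 and 21.3 TPM in NK cells, 5.02, 10.4 and 10.99 TPM in B cells, and 2.04, 3.07 and 4.21 TPM in T cells. HSPCs had 8.09, 14.2 and 10.6 TPM and overlapped NK cells, and monocytes had 79.4, 79.2 and 91.9 TPM. It was higher in NK cells by 1.17 ± 0.28 (limma adjusted p = 0.00672) on the TPM scale and by 0.82 ± 0.29 on the protein-coding scale (limma adjusted p = 0.0509), past the threshold on the first scale only. Without NK cell replicate 3 the adjusted p on the TPM scale was 0.085.

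The pair Rps27 and Rps27l moved in opposite directions in T cells, with Rps27 called higher and Rps27l called lower on both scales. The change of Rps27l in T cells was -1.62 ± 0.28 (limma adjusted p = 0.000155) on the TPM scale. In HSPCs Rps27 was called lower on both scales, while Rps27l was called higher on the protein-coding scale (0.75 ± 0.29, limma adjusted p = 0.0381) and not called on the TPM scale (0.44 ± 0.28).

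On HSPCs, the called members were mostly lower. On the TPM scale 1 member was higher, against 10.2% of all genes, and 14 were lower, against 14.4%, with a median of -0.31 against -0.05. The count of 15 (24.7% of all genes) became 4 without HSPC replicate 1 (18.8%), 5 without HSPC replicate 3 (15.5%), 29 without T cell replicate 1 (26.9%) and 26 without NK cell replicate 1 (32.6%). On the protein-coding scale 11 were higher (35.6%) and 32 lower (21.6%), with a median of -0.12 against 0.22 over all genes. The 14 lower members were lower on both scales and included Rps27, Rps29, Rps26, Rpl36, Rplp1, Rpl12, Rpl31, Rpl35a, Rpl37, Rpl38, Rps15a, Rps20 and Rps23. The call for Rplp1 on the TPM scale (limma adjusted p = 0.0382) remained lower in 8 of 22 alternatives, and under quantile normalisation it was called higher (0.37).

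Rps27 fell furthest in HSPCs, with -1.96 ± 0.28 on the TPM scale (limma adjusted p = 1.56e-05) and -1.76 ± 0.17 on the protein-coding scale. Rpl36 was at 28.5, 59.4 and 37.9 TPM in HSPCs, below all libraries of B cells, T cells and NK cells, and changed by -1.34 ± 0.29 (limma adjusted p = 0.00163). Rps29 changed by -1.17 ± 0.25 (limma adjusted p = 0.00152), a call lost without a filter on low values. Rpl7a was the 1 member higher on both scales, by 0.87 ± 0.30 on the TPM scale (limma adjusted p = 0.0384) and by 1.29 ± 0.13 on the protein-coding scale. Its levels in HSPCs overlapped those in B cells and NK cells and lay above those in T cells. The call on the TPM scale was lost in 7 alternatives. With monocytes added to the reference types, Rpl7a was at -0.12 on the TPM scale and not called.

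On monocytes, nearly all members were higher by TPM and lower among mRNAs. On the TPM scale 74 were higher, against 97.8% of all genes, and 0 lower, against 1.44%. All 74 were also at an unadjusted p below 0.05, against 99.2% of all genes at that p. The member median of 2.11 lay below that of all genes, 2.59. On the protein-coding scale 1 was higher (51.2% of all genes) and 71 lower (13.5%), with a median of -1.18 against 0.53. For 65 members (81.2%) the call was higher on the first scale and lower on the second, against 11.3% of all genes. Rpl10, Rpl13a, Rpl32, Rpl41, Rplp0 and Rps10 were among them.

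Rpl7a was the 1 member called higher in monocytes on both scales, at 129, 147 and 135 TPM. Its change was 3.77 ± 0.29 on the TPM scale (limma adjusted p = 2.61e-11) and 0.65 ± 0.12 on the protein-coding scale (limma adjusted p = 0.000307). Rpl24 and Rpl15, with changes of 3.94 ± 0.41 and 3.41 ± 0.34 on the TPM scale, were not called on the protein-coding scale (limma adjusted p = 0.0764 and 0.452). The members with the lowest fold changes on that scale were Rpsa, by -4.17 ± 0.35, and Rpl35, by -4.08 ± 0.30. Transcripts of Rpsa with an intron left in (retained-intron transcripts) are not counted here and averaged 105 TPM in monocytes. They averaged 1.79 to 56.0 TPM in the other types.

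In T cells the calls of the 3 stalk proteins differed, although no test compared them with one another. In NK cells and in monocytes all 3 were called lower on the protein-coding scale. On the TPM scale Rplp0 and Rplp2 were called higher in monocytes and Rplp1 was not called. Rplp0, the stalk's anchor, was called lower in T cells on the TPM scale (-1.02 ± 0.34, limma adjusted p = 0.0145) but not on the protein-coding scale (-0.12 ± 0.14). Rplp1 was called higher in T cells on the protein-coding scale (1.17 ± 0.14, limma adjusted p = 7.55e-06) and was at 0.24 ± 0.26 on the TPM scale. Rplp2, its partner, was called lower in T cells on the TPM scale (-1.13 ± 0.30, limma adjusted p = 0.0041) and was at -0.25 ± 0.13 on the protein-coding scale. Only protein-coding transcripts enter these levels. Retained-intron transcripts of Rplp2 averaged 50.9 TPM in T cells. They were at 1.76 TPM in B cells, 25.3 TPM in NK cells and 8.09 TPM in HSPCs. The part of these in the Rplp2 call was not tested. Of 22 alternatives the calls on the TPM scale held in 19 for Rplp0 and in 20 for Rplp2, and both were lost without T cell replicate 1. In T cells Rplp1 stood at 217, 376 and 404 TPM, Rplp0 at 20.8, 52.9 and 49.7 TPM and Rplp2 at 9.35, 23.7 and 20.6 TPM. In monocytes Rplp0 was at 356, 334 and 330 TPM, close to Rplp1.

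Rpsa, a small-subunit protein also known as the laminin receptor, was at 48.1, 7.64 and 6.38 TPM in B cells, where replicate 1 lay far above the others. Levels in T cells were 19.1, 45.3 and 37.9 TPM, in NK cells 21.0, 34.3 and 41.9 TPM, and in HSPCs 16.8, 33.0 and 32.0 TPM. Monocytes had 13.3, 17.1 and 11.2 TPM. Rpsa passed the threshold in none of the 5 comparisons on the TPM scale (limma adjusted p from 0.0618 to 0.878). Without B cell replicate 1, however, it was called lower in B cells (-1.94, limma adjusted p = 0.000517). Of 22 alternatives, 8 called it lower in B cells, 6 lower in monocytes and 2 higher in T cells. Rpsa was called on the protein-coding scale, lower in B cells, higher in T cells and lower in monocytes. Only protein-coding transcripts enter these levels. Retained-intron transcripts of Rpsa averaged 56.0 TPM in B cells and 105 TPM in monocytes. They were at 1.79 TPM in T cells, 9.03 TPM in NK cells and 7.83 TPM in HSPCs. The part of these in the Rpsa calls was not tested.

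Rpl41 had 7.77, 18.4 and 16.2 TPM in T cells, below every library of the other types, and 203, 260 and 178 TPM in monocytes. It was called lower in T cells on both scales, by -1.37 ± 0.31 (limma adjusted p = 0.00156) and -0.51 ± 0.14. Rpl36a was at 7.56, 13.2 and 13.6 TPM in T cells and 80.2, 90.5 and 62.6 TPM in monocytes, and its paralog Rpl36al at 5.90, 10.1 and 11.4 TPM and 84.1, 87.0 and 102 TPM. Neither was called in B cells, T cells, NK cells or HSPCs on the TPM scale. In T cells the sign turned with the scale, with Rpl36a at -0.38 ± 0.27 on the TPM scale and called higher on the protein-coding scale (0.52 ± 0.16, limma adjusted p = 0.0133). Rpl36al was at -0.18 ± 0.26 and 0.72 ± 0.14 (limma adjusted p = 0.000534) there, and was called lower in B cells and HSPCs on the protein-coding scale (limma adjusted p = 0.0244 and 0.0349). Their coding sequences share 87.7% of positions.

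Among the other paralogs, Rpl22l1 ranged from 2.05 to 20.1 TPM and Rpl7l1, a relative of Rpl7, from 0.304 to 14.7 TPM over the 15 libraries. Rpl22 was called lower in T cells on both scales, whereas Rpl22l1 was called higher there on the protein-coding scale (0.78 ± 0.22, limma adjusted p = 0.00905) and was at -0.12 ± 0.25 on the TPM scale. Rpl39l reached 0.862 TPM in 1 monocyte library and less elsewhere, against 21.5 to 251 TPM for Rpl39.

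How far a read can be given to 1 member limits these levels. For each member's main transcript, the share of its 31-base stretches found in no transcript of another gene or pseudogene of the annotation was counted. The median over the 80 members was 35.5%, and 58 members lay below 50%. It was 0.983% for Rpl35, 1.27% for Rps27, 5.95% for Rpl36, 12.9% for Rpl7a, 14.7% for Rps2, 17.8% for Rpl24, 24.2% for Rpl15, 60.8% for Rps29 and 70.4% for Rps27l. Low shares were also found for Rpl10 (7.67%), Rpl36a (11.7%), Rpl13a (17.8%), Rps10 (19.1%) and Rplp1 (24.95%). Levels of members with a low share, Rpl35, Rps27, Rpl36, Rpl7a, Rps2, Rpl24, Rpl15 and those just named among them, are therefore uncertain. They rest on how the authors' quantification divided reads shared with close copies.

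Transcripts with an intron left in were also measured on the surface. Transcripts annotated as retained introns numbered 168 from 64 members in the tables. In the 29 members that hold a snoRNA gene within their bounds, these made up 19.6%, 15.4% and 12.8% of retained-intron plus protein-coding TPM in T cells. In the 51 members without one they made up 0.590%, 1.01% and 0.976%. The share was higher in the first set in all 15 libraries. In NK cells the shares were 10.1% ± 0.590 and 1.40% ± 0.166 (SD, n = 3), in monocytes 10.5% ± 0.306 and 2.11% ± 0.594, and in HSPCs 7.55% ± 1.45 and 1.85% ± 0.270. B cells had 4.90%, 8.35% and 8.21% in the first set and 0.868%, 3.61% and 5.56% in the second, so that the ranges of the sets overlapped.

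**Figure D4:**
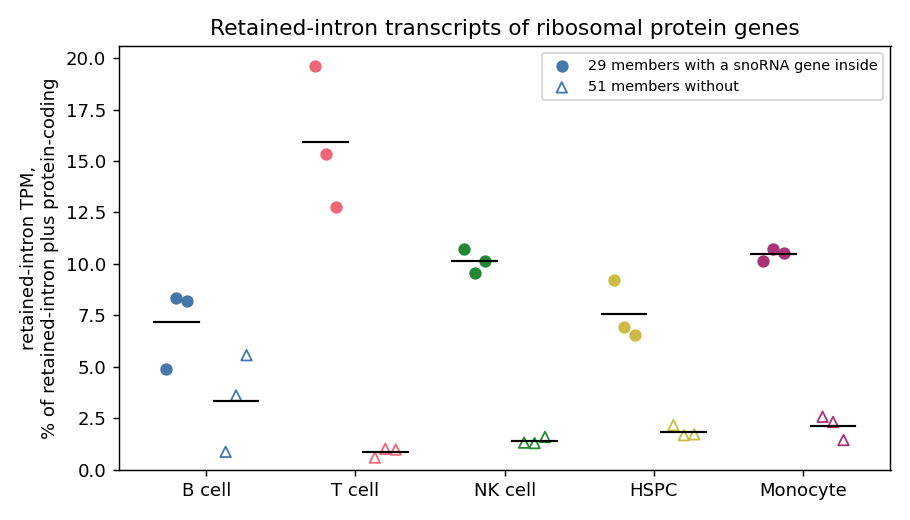
Retained-intron TPM as a percentage of retained-intron plus protein-coding TPM of member genes in each surface library, for 29 members that hold a snoRNA gene (filled circles) and 51 that do not (open triangles), with the mean as a line. T cells show the widest gap, 15.9% against 0.860%, and in B cells the ranges overlap. In T cells Rplp2 and Rpl4 hold 50.9 and 41.0 TPM of the 141 TPM that the first set averages.

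The genes with the highest retained-intron levels differed between cell types. Retained-intron transcripts of Rplp2, whose gene holds Snora52, averaged 50.9 TPM in T cells, above its protein-coding level there, and 1.76 TPM in B cells. Those of Rpl4, a protein that lines the exit tunnel and whose gene holds 5 annotated snoRNA genes, averaged 41.0 TPM in T cells and 4.19 TPM in B cells. All members with a snoRNA gene together averaged 141 TPM in T cells, so their share there rests largely on Rplp2 and Rpl4. Rpsa reached 105 TPM of retained-intron transcripts in monocytes, 56.0 TPM in B cells and 1.79 TPM in T cells. The 29 members with a snoRNA gene, Rplp2, Rpl4 and Rpsa among them, overlap the snoRNA genes they hold. Their retained-intron levels are therefore uncertain. Members without a snoRNA gene also reached high levels. Retained-intron transcripts of Rpl19 averaged 58.0 TPM in B cells, and those of Rps26 averaged 59.9 TPM in monocytes. All members without a snoRNA gene together averaged 108 TPM in B cells and 175 TPM in monocytes.

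Other genes of the protein synthesis apparatus gave a background for the members. Fau and Rack1 encode ribosomal proteins outside the symbol rule. In T cells on the protein-coding scale Fau (1.16 ± 0.20, limma adjusted p = 0.000261) was higher and Rack1 was lower (-0.42 ± 0.13, limma adjusted p = 0.0165). In HSPCs Fau was lower and Rack1 higher on that scale. Fau was also called lower in HSPCs, and Rack1 lower in T cells, on the TPM scale.

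Of 20 translation factors and other mRNAs with a TOP tract, 14 (70.0%) were lower in T cells on the TPM scale, against 58.7% of all genes. On the protein-coding scale 12 (60.0%) were lower, against 40.9%, and 3 higher. Eef1g, a subunit of elongation factor 1, was at -1.76 ± 0.32 (limma adjusted p = 0.000216) on the first and -1.29 ± 0.18 on the second. In HSPCs 12 of the 20 (60.0%) were higher and 0 lower on the protein-coding scale, against 35.6% and 21.6% of all genes, and 2 were higher on the TPM scale, against 10.2%, among them Eif4a1 (0.94 ± 0.30, limma adjusted p = 0.0255). Members had medians of 0.33 in T cells and -0.12 in HSPCs on the protein-coding scale, and these 20 mRNAs -0.54 and 0.54.

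Of 20 genes of ribosome assembly, 18 were tested. In T cells 18 were lower on the TPM scale (58.7% of all genes) and 10 (55.6%) on the protein-coding scale (40.9% of all genes), with Nop56, a core snoRNP protein, at -1.21 ± 0.19 and -2.10 ± 0.26. In HSPCs 16 of 18 (88.9%) were higher on the protein-coding scale, against 35.6% of all genes, with Dkc1, the pseudouridine synthase, at 1.42 ± 0.20 (limma adjusted p = 2.71e-05). There 2 were higher on the TPM scale (11.1%, against 10.2%). Of the 62 mitochondrial ribosomal protein genes tested, 30 (48.4%) were higher and 2 lower in HSPCs on the protein-coding scale, where 35.6% of all genes were higher, and 3 were higher on the TPM scale. In T cells 42 of the 62 (67.7%) were lower on the TPM scale, near the 58.7% of all genes, and 21 (33.9%, against 40.9%) on the protein-coding scale. Of 8 ribosomal S6 kinase genes, 4 were tested. Rps6ka4 was lower in T cells on the TPM scale (-0.55 ± 0.13, limma adjusted p = 0.00191) and on the protein-coding scale (-0.91 ± 0.16). Rps6ka3 (1.27 ± 0.28, limma adjusted p = 0.00145) and Rps6kb1 (0.61 ± 0.23, limma adjusted p = 0.0341) were higher on the protein-coding scale and not called on the TPM scale.

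In PBMC total RNA, no member was called in any of the 3 comparisons between ct, WT and Y. The libraries held 4686426 to 9055797 counts, of which members took 0.728% to 1.21% and 1 ribosomal RNA gene, CT010467.1, 50.5% to 57.0%. Of 81 members tested among 11635 genes with edgeR's quasi-likelihood test, 0 passed an adjusted p below 0.05 between WT and ct, Y and ct, or Y and WT. Of all genes, 2.36%, 0.705% and 1.25% were called in either direction. At an unadjusted p below 0.05 there were 2, 12 and 15 members, against 11.8%, 8.61% and 11.7% of all genes. DESeq2 called 0, 0 and 1, the last being Rps12 (adjusted p = 0.0481). Median log2 fold changes of members were 0.02, 0.05 and 0.01. The comparisons share the ct, WT or Y libraries between them.

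Without ct replicate 3, which had the highest member levels of its group, the counts were 1, 9 and 3 of 81, while 1.80%, 1.40% and 1.43% of all genes were called. The 9, all higher in Y, included Rpl4, Rpl12, Rps2, Rpl5, Rps12, Rpl7a and Rpl13a. For Y against WT the count was also 1 without WT replicate 1, the member being Rpl30 (0.91 ± 0.18, edgeR adjusted p = 0.0163), and 1 without Y replicate 1, the member being Rps2 (edgeR adjusted p = 0.0378). The count of 0 thus depended on single libraries.

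Rps2 had the largest change. Its level was 209, 185 and 345 normalised counts per 1000000 (CPM) in ct, 271, 155 and 224 CPM in WT and 278, 574 and 417 CPM in Y. Y and ct overlapped, and Y lay above WT in every library. The fold change was 0.78 ± 0.25 for Y against ct (edgeR adjusted p = 0.286) and 0.97 ± 0.25 for Y against WT (edgeR adjusted p = 0.0823). Rps12 was at 356, 425 and 596 CPM in ct, 382, 423 and 475 CPM in WT and 581, 597 and 663 CPM in Y, and changed by 0.53 ± 0.15 for Y against WT (edgeR adjusted p = 0.124). Rpl30 changed by 0.62 ± 0.19 in that comparison (edgeR adjusted p = 0.18), Rpl37a by -0.32 ± 0.13 (adjusted p = 0.341) and Rpl15 by -0.20 ± 0.08 (adjusted p = 0.321).

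The members with a snoRNA gene inside again stood at other values than the rest. For Y against ct their median log2 fold change was 0.15, with 26 of 29 above 0 and 11 at an unadjusted p below 0.05, all higher, where 8.61% of all genes passed that p. For the 52 members without, the median was 0.01, with 29 above 0 and 1 at that p. For Y against WT the medians were 0.21, with 25 of 29 above 0, and -0.04, with 17 of 52 above 0. For WT against ct they were -0.01 and 0.05. All members called in any alternative held a snoRNA gene. This split was described after values had been seen and carries no test. The PBMC values are per gene and are not divided by transcript type.

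Annotated snoRNA genes inside members were counted in their own rows, of which 54 were tested. Their median was 0.21 for WT against ct, 0.19 for Y against ct and -0.03 for Y against WT. Of the 54, 48 were above 0 for WT against ct, 49 for Y against ct and 24 for Y against WT. With edgeR 1 row was called for WT against ct, 0 for Y against ct and 1 for Y against WT. Of all genes, 2.36%, 0.705% and 1.25% were called. At an unadjusted p below 0.05 there were 15, 14 and 10 rows, of which 15, 14 and 6 were higher. The shares of all genes at that p are those given above for the members. The neutrophil markers summed to 188 to 198 CPM in Y, 50.4 to 64.7 CPM in WT and 65.3 to 85.7 CPM in ct, and the erythroid markers to 4875 to 4901, 3871 to 5023 and 6654 to 8090 CPM, with all 6 erythroid markers above 0. Platelet markers were at 338 to 377 CPM in Y, 238 to 318 CPM in WT and 415 to 493 CPM in ct. Fewer cells of a type and less RNA per cell cannot be told apart in these bulk samples, and the part of other cells in the member values was not tested.

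**Figure D5:**
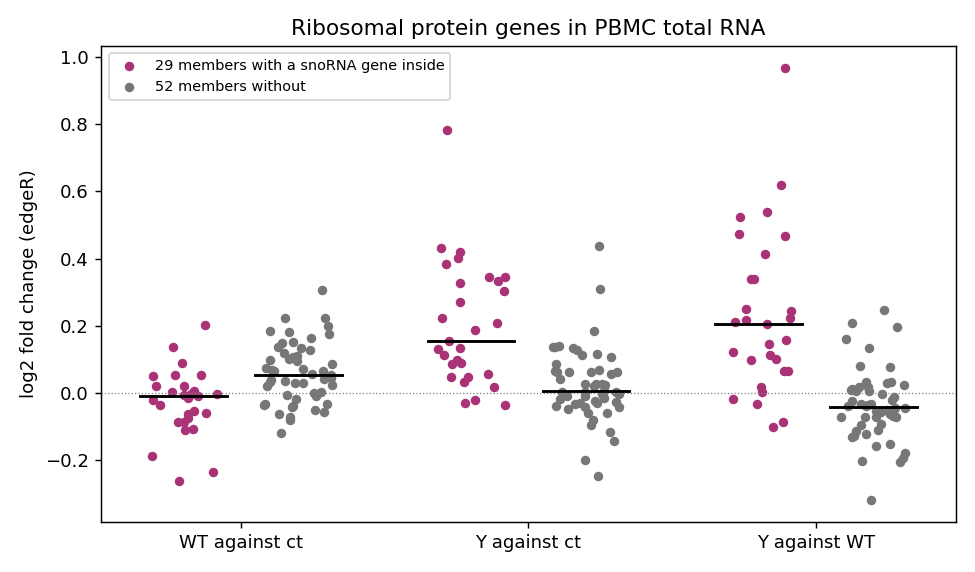
Log2 fold change (edgeR) of 81 members in PBMC total RNA for the 3 comparisons, split into 29 members that hold a snoRNA gene and 52 that do not, with the median as a line. For Y against WT the medians are 0.21 and -0.04, and no point passed the adjusted threshold.

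Levels in the blood and on the surface ranked only loosely alike. Over the 80 members, Spearman's rho with mean PBMC TPM was 0.239 for T cells, 0.418 for B cells and 0.439 for HSPCs. Members with a snoRNA gene had a median of 87.7 TPM in PBMCs and 46.1 TPM on the surface, and those without 25.8 and 63.2 TPM. The PBMC values are per gene, whereas the surface values count protein-coding transcripts only and leave out retained-intron transcripts. The PBMC and surface tables were also normalised separately and made by different assays, so that these levels are set side by side only.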

How the data were processed

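Surface RNA was measured in 15 libraries and PBMC total RNA in 9. For the surface tables the authors trimmed the reads, kept 1 read per barcode and deposited TPM per transcript estimated with kallisto, of which neither the transcript set nor the depth is given in the sources used here. The PBMC values deposited by the authors are expected counts of genes made with RSEM, and were rounded to whole numbers. The submitters' processing notes also name cutadapt, Trim Galore, STAR and featureCounts, with the mm10 build. TPM of protein-coding transcripts were summed by gene symbol over the 102001 transcripts listed in all 5 tables, which left 227 of 238 transcripts of members.

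Surface values were compared with limma 3.58.1 in R 4.3.3 with a mean-variance trend, in 1 fit of all 15 libraries, at a pseudocount of 1 and for genes with a mean of at least 1 TPM. PBMC counts were compared with edgeR 4.0.16 (quasi-likelihood, TMM, filterByExpr) in 1 fit of 9 libraries, and with DESeq2 1.42.0 as an alternative. The study names DESeq2 on counts for its own comparison, which TPM do not allow. The protein-coding scale is given beside the TPM scale for counts and where it changes a direction or a call. For most members on monocytes that change is given as a count. In tests on simulated data of the T cell comparison over 7304 genes, 36 of 100 genes changed by 1 on the log2 scale and 98 of 100 changed by 2 were recovered. For Y against ct over 11360 genes these were 99 and 100 of 100. False calls numbered 2 for T cells and 9 for Y against ct. In the simulation genes and libraries varied independently, and changes were placed only in better-measured genes. Recovery in the real libraries may therefore differ.

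Members and lists were chosen with earlier results of these data known, so no test was made over a list. Genes named in the text were the 10 members with the highest mean level, for each surface comparison the 3 called members with the largest changes in either direction on the TPM scale, and for each PBMC comparison the 3 with the largest changes, called or not. Added to these were the stalk proteins, Rpsa, Rpl41, Rpl36a and the paralogs. Some members and sequences that meet these rules are not reported here. Other members named in a count, Rpl35, Rpl4 and Rps12 among them, were chosen after their values were seen. The retained-intron and snoRNA splits were also added after the data had been seen. Gene positions and snoRNA genes are from GENCODE M21 (GRCm38).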

Additional observations from a re-analysis of the deposited data

How the results depend on the processing

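Depth is unknown for the surface libraries, and groups of 3 libraries give wide errors. Counts of called members moved with the scale, the reference types and single libraries. On the protein-coding scale they were 72 on monocytes, 47 on T cells and 36 on NK cells, turned in direction, and 43 on HSPCs. Under quantile normalisation they were 67 on monocytes (1 higher), 44 on T cells (38 higher) and 31 on NK cells (1 higher), turned likewise, and 44 on HSPCs (10 higher), with 63.7%, 48.4%, 25.2% and 58.1% of all genes called. Without a filter on low values they were 23 of 85 on B cells, 17 on T cells and 8 on HSPCs, with 2765, 3991 and 1963 of 17920 genes called. With monocytes in the reference they were 18 on B cells, 58 on T cells, 7 on NK cells, all lower and thus turned, and 53 on HSPCs, when 66.9%, 96.7%, 61.3% and 86.2% of all genes were called. The cause was not tested. Leaving out each library in turn gave 21 to 37 calls for B cells, 10 to 40 for T cells, 0 to 3 for NK cells, 4 to 29 for HSPCs and 72 to 76 for monocytes, and on the protein-coding scale, in this order, 31 to 47, 42 to 54, 23 to 41, 33 to 48 and 67 to 73. Of all genes, 24.7% to 41.2%, 29.7% to 72.4%, 5.11% to 49.4%, 15.5% to 32.6% and 98.8% to 99.2% were called in these fits, and on the protein-coding scale 43.4% to 55.0%, 46.1% to 58.0%, 20.3% to 27.1%, 48.3% to 59.7% and 57.1% to 66.8%. A pseudocount of 0.1, a filter of 10 TPM and the use of all listed transcripts kept every surface count within 1.5 times.

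Summed TPM ranged over 4554 to 5674 for B cells, 2827 to 3912 for T cells, 3134 to 4301 for NK cells, 2278 to 2907 for HSPCs and 12294 to 12407 for monocytes when each library was left out, and the share of protein-coding TPM over 21.0% to 21.8%, 28.9% to 30.9%, 15.8% to 16.2%, 16.3% to 16.5% and 6.89% to 7.20%. Without the member with the highest mean, the shares were 20.02% for B cells, 26.8% for T cells, 14.6% for NK cells and 15.2% for HSPCs, and the monocyte sum was 11990 TPM.

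In PBMCs, calls ranged over 0 to 1 for WT against ct, 0 to 9 for Y against ct and 0 to 3 for Y against WT when each library was left out, with 1.41% to 2.13%, 0.282% to 1.40% and 0.431% to 1.43% of all genes called. Without a filter they were 0, 5 and 7 of 83 (1.64%, 0.869% and 1.24% of all genes), and with DESeq2 0, 0 and 1. Of the 17 calls on the surface named for the largest changes, 8 were lost under at least 1 alternative. These were Rps26 in T cells (15 alternatives), Rpl7a in HSPCs (7, and at -0.12 with monocytes in the reference), Rps27l in NK cells (4), Rpl15 and Rpl24 in monocytes (2 each), and Rps27 and Rps29 in T cells and Rps29 in HSPCs (1 each, without a filter, adjusted p of 0.171, 0.132 and 0.0968 with limma). Among calls of the other named members, those of Rpl36 held in 7 of 22 alternatives in T cells, of Rplp0 in 19 and Rplp2 in 20 in T cells and of Rplp1 in 8 in HSPCs. In monocytes Rpl36 held in 19 and Rpl41, Rpl36a, Rplp0 and Rplp2 in 21, the last 3 and Rpl36 being called lower in 1.

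With the replicate number as a block, calls were 36 for B cells, 35 for T cells, 1 for NK cells, 17 for HSPCs and 74 for monocytes, with 38.2%, 61.3%, 16.9%, 26.0% and 99.2% of all genes called, and 0 in each PBMC comparison, with 2.01%, 0.636% and 1.10%. The labels give no shared source for a number. Deviations of same-numbered T and NK cell libraries correlated at 0.348 to 0.548 and those of T cells and HSPCs at 0.135 to 0.434, all above 0.1, against -0.428 to 0.219 and -0.383 to 0.292 for other numbers. Those of NK cells and HSPCs, at 0.00665 to 0.285, lay within the range of other numbers (-0.368 to 0.305). B cells (-0.282 to 0.00923 with T cells), monocytes and PBMCs (-0.0613 to 0.0594 over 9 pairs) had no same-numbered pair above 0.1. With the block the call for Rps26 in T cells was lost (limma adjusted p = 0.052).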

Other observations

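Rows named as pseudogenes of members numbered 335, of which 225 were listed in all 5 tables and 108 in the monocyte table only. Those shared by all tables summed to 977 to 1082 TPM in monocytes and 36.5 to 125 TPM in the other types. In monocytes the pseudogene rows of Rps26 averaged 166 TPM, those of Rps23 146 TPM, of Rpl28 125 TPM and of Rpl31 101 TPM. In T cells those of Rps26 averaged 0.353 TPM.

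Level and length were related in a weak way across members. Spearman's rho between the length of the main transcript and the mean level over 80 members was -0.464 for T cells, -0.462 for NK cells, -0.353 for HSPCs and 0.0681 for PBMCs. For the fold change on the TPM scale it was -0.24 in T cells and 0.35 in HSPCs. The 33 members of up to 600 bases had a median of -0.36 in T cells and -0.54 in HSPCs, and the 47 longer ones -0.61 and -0.19. Members share libraries and reads, so these are descriptions.

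Rps27rt, a copy of Rps27 without introns, was at 0.210 TPM or less in all surface libraries and at 5.36 to 8.79 TPM in PBMCs. Rps27 shared nearly all of its 31-base stretches with other genes or pseudogenes.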
